A study of Mus musculus with 6 samples.

Results

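The genes described here are 9 genes of the antibody system in the mouse uterus: Ighg1, Ighg2b, Ighg2c, Ighm and Igha, which encode antibody heavy chains, Igkc for the kappa light chain, Jchain and Mzb1 of antibody-secreting cells, and Pigr, the epithelial antibody transporter. They were chosen from earlier results on these same data, in which the levels of CO and DES sections were known, so every CO to DES difference of these 9 genes is given as a description. Where the calls of a fit on them are printed, nothing is read from those calls. All 9 were found among the 30828 genes of the section tables and the 24077 genes of the single-cell table. The uteri came from CD-1 mice aged 12 months that had received corn oil (CO) or diethylstilbestrol (DES, a synthetic estrogen, 1 mg/kg/day) under the skin on neonatal days 1 to 5. Uteri were measured as tissue sections on 1 spatial capture slide (Visium), 2 CO (CO A and CO B) and 2 DES (DES A and DES B), 1 mouse each. Dissociated uterine cells gave 1 CO library pooled from 2 mice and 1 DES library pooled from 4 mice. CO mice were taken in estrus and DES mice were in persistent estrus, DES blocks were picked for the presence of uterine adenocarcinoma, and blocks were cored to the areas of interest. The study also described a tissue fold in CO B and clusters that were hard to tell apart in DES B.

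B cells that meet antigen mature into plasma cells, which devote much of their messenger RNA to 1 heavy chain and 1 light chain. IgA is the main class at many mucosal surfaces, and in the uterus antibodies of the IgA and IgG classes reach the lumen. The J chain links IgA or IgM units into polymers, and the polymeric immunoglobulin receptor, encoded by Pigr, carries those polymers across the epithelium. Mzb1 is an endoplasmic reticulum protein that helps antibody assembly.

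The sections held 1357 to 1834 spots and 9117099 to 12506177 unique molecular identifiers (UMIs, counted molecules). The CO library held 32387 cells and 353460067 UMIs, and the DES library held 16312 cells and 288919190 UMIs. A level is given in CPM, the UMIs of a gene per 1000000 UMIs of the sample, and ± is the SD over the 2 sections of a group. A spot covers several cells, so a higher level cannot be told apart as more cells or as more RNA per cell. Summed markers of 5 muscle genes were at 12151 and 13677 CPM in the CO sections against 3296 and 3756 CPM in the DES sections, and 3 basal cell markers at 3.36 and 159.7 CPM against 9526 and 5644 CPM. Immune markers moved with the antibody genes too, with 5 myeloid genes at 247 and 469 CPM in CO against 1809 and 1024 CPM in DES, 5 T cell genes at 4.88 and 6.89 CPM against 19.2 and 33.3 CPM, and 3 eosinophil genes at 1.76 and 5.71 CPM against 31.5 and 37.2 CPM. Most of the eosinophil sum came from Prg2, which plasma cells can also make, as given below. The 4 NK cell genes were at 19.2 and 23.8 CPM in CO and 4.28 and 7.29 CPM in DES. The tissue in the sections therefore differed between groups, and the part of this in the values below was not tested. The cells were released from opened horns with trypsin and sieved. The DES library held 1 annotated stromal cell against 1326 in the CO library.

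The 5 heavy-chain genes lie on the minus strand of chromosome 12 (GRCm38), with Igha at chr12:113254830-113260236, Ighg2c at chr12:113285325-113288932, Ighg2b at chr12:113302965-113307933, Ighg1 at chr12:113325240-113330523 and Ighm at chr12:113418558-113422730. Igkc lies on chromosome 6, Jchain on 5, Mzb1 on 18 and Pigr on 1. The last 60 coding bases of each secreted heavy chain, all in the final exon, are printed from the GENCODE annotation of GRCm38 because they separate the classes that Jchain and Pigr serve from those they do not. Capitals mark the codon of the cysteine that pairs with the J chain. It stands next to the last amino acid in Igha and Ighm, and the 3 IgG genes have another codon there.

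Igha: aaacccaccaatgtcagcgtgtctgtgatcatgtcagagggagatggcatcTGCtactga
Ighm: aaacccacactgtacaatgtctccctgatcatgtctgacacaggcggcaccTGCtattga
Ighg1: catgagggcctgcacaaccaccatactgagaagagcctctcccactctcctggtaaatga
Ighg2b: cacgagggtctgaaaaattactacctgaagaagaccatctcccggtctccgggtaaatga
Ighg2c: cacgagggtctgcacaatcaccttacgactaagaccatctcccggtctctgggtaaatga

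These lie at chr12:113258768-113258827, chr12:113420867-113420926, chr12:113328976-113329035, chr12:113306389-113306448 and chr12:113287389-113287448. Igha and Ighm had the same base at 41 of the 60 positions, and Ighg2b and Ighg2c at 49. The longest identical run in the whole transcripts was 78 bases between Ighg2b and Ighg2c and 12 between Igha and Ighm. The run of 78 bases is shorter than the transcript reads given in the study's methods. How reads of the IgG genes were divided between them was not tested. The deposited counts are per gene and do not separate secreted from membrane forms. On the same strand, Igkc overlaps Gm30211 and Mzb1 overlaps SPATA24.

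Among the heavy chains, Igha was the highest in each section. Igha had 1609 and 7777 UMIs in CO A and CO B, and 29103 and 53486 UMIs in DES A and DES B, which is 417 ± 407 CPM in CO and 4303 ± 1571 CPM in DES. Both DES sections lay above both CO sections, and CO B lay well above CO A. Ighm, the chain of the first antibody class a B cell makes, had 185 and 321 UMIs in CO and 1948 and 1946 in DES (21.9 ± 10.1 and 205 ± 11.8 CPM). It was the most even of the heavy chains within each group.

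The 3 IgG genes were less even. Ighg2c had 103 and 209 UMIs in CO A and CO B, and 1028 and 4520 in DES A and DES B (13.6 ± 7.57 and 285 ± 244 CPM). Ighg2b had 24 and 339 UMIs in CO, and 1048 and 3929 in DES (16.3 ± 20.4 and 256 ± 199.9 CPM). Ighg1 had 55 and 2 UMIs in CO, and 781 and 148 in DES (2.29 ± 2.98 and 50.3 ± 50 CPM). For each of the 3 the sections of a group spread widely, and both DES values stood above both CO values.

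Igkc, which pairs with any heavy chain, had 2322 and 3998 UMIs in CO and 24854 and 51573 in DES (274 ± 125 and 3973 ± 1763 CPM). Jchain had 473 and 1187 UMIs in CO and 4520 and 8237 in DES (72.7 ± 49.3 and 665 ± 239 CPM). Mzb1 had 16 and 50 UMIs in CO and 252 and 435 in DES (2.91 ± 2.30 and 35.8 ± 11.6 CPM). These 3 genes held the order CO A, CO B, DES A, DES B, as Igha did. Pigr did not: it had 6330 and 2189 UMIs in CO A and CO B, and 2653 and 3025 UMIs in DES A and DES B (352 ± 218 and 299 ± 10.7 CPM), and the 2 groups overlapped.

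**Figure D1:**
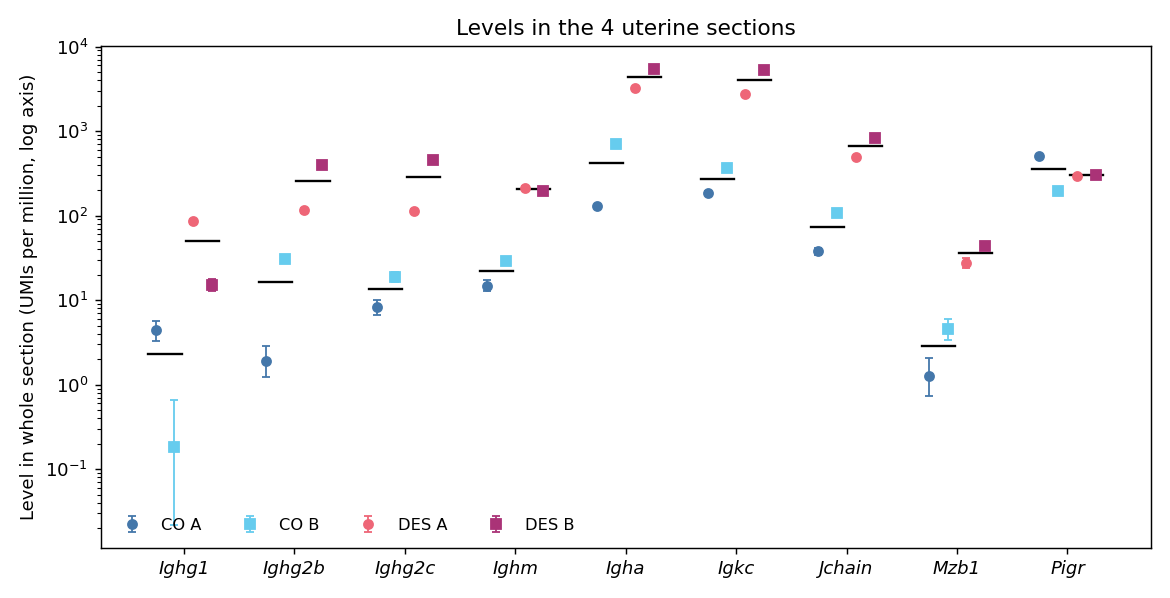
Level of each gene in the 4 sections (CPM, log axis), with exact Poisson 95% intervals that cover counting error only; black bars are group means. For 8 genes both DES points lie above both CO points, and for Pigr the DES points lie between the 2 CO points.

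The ratio of the mean DES level to the mean CO level was 9.14 for Jchain, 9.36 for Ighm, 10.3 for Igha, 12.3 for Mzb1, 14.5 for Igkc, 15.7 for Ighg2b, 21 for Ighg2c and 22.0 for Ighg1, and 0.848 for Pigr. In the edgeR fit over 14098 genes, with TMM scaling, the log2 fold changes were 3.01 (SE 0.59) for Jchain, 3.03 (SE 0.35) for Ighm, 3.19 (SE 0.86) for Igha, 3.44 (SE 0.62) for Mzb1, 3.67 (SE 0.52) for Igkc, 3.81 (SE 1.34) for Ighg2b, 4.17 (SE 1.34) for Ighg1 and 4.21 (SE 0.85) for Ighg2c. Single sections weighed on these sizes: without CO B the value was 4.84 for Igha, 3.91 for Jchain and 6.84 for Ighg2b, without CO A it was 7.82 for Ighg1, and without DES B it was 2.81 for Ighg2c and 3.07 for Igkc. That of Pigr was -0.46 (SE 0.47), and it turned to 0.41 without CO A. Of the 9 genes 8 had both DES sections above both CO sections, where 43.8% of all genes did so in CPM and 28.6% after TMM scaling. The fit called 2 of the 9, Ighm and Igkc, beside 5.30% of all genes. DESeq2 called 6 of the 9, beside 1791 of all genes, where edgeR called 747. Since these values chose the genes, nothing is read from either count. In plain CPM the median of all genes was 0.20 higher in DES on the log2 scale, which is small beside the 8 differences but not beside that of Pigr.

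The antibody UMIs, here all immunoglobulin genes and Jchain, made up 0.0387% and 0.127% of UMIs in CO A and CO B, and 0.706% and 1.28% in DES A and DES B. Igha supplied 81.1% and 89.8% of heavy-chain UMIs in CO A and CO B, and 85.7% and 83.5% in DES A and DES B. Igkc supplied 98.6%, 96.3%, 96.6% and 95.8% of the light-chain UMIs in the same order. Igha was thus the main heavy chain and Igkc the main light chain in all 4 sections.

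For most antibody genes much of a section's signal lay in few spots, and how much differed between genes. In CO A, 54 of the 55 Ighg1 UMIs came from 1 spot, and in DES A 639 of 781 did. In CO B, 1 spot gave 165 of the 209 Ighg2c UMIs. The top 1% of spots held 69.1% and 34.0% of the Igha UMIs in CO A and CO B, and 37.4% and 33.8% in DES A and DES B. For Ighm the same share was 22.7% and 15% in CO A and CO B, and 73.3% and 64.3% in DES A and DES B, so it was spread more widely in the CO sections. For Pigr the top 1% of spots held 8.06 to 11%. With the highest spot of each section left out, both DES sections still lay above both CO sections for the 8 genes, and the ratio of the means ran from 7.78 for Ighm to 140.0 for Ighg1. It moved by over 1.5 times for Ighg1, from 22.0 to 140.0, and for Ighg2c, from 21 to 43.7.

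**Figure D2:**
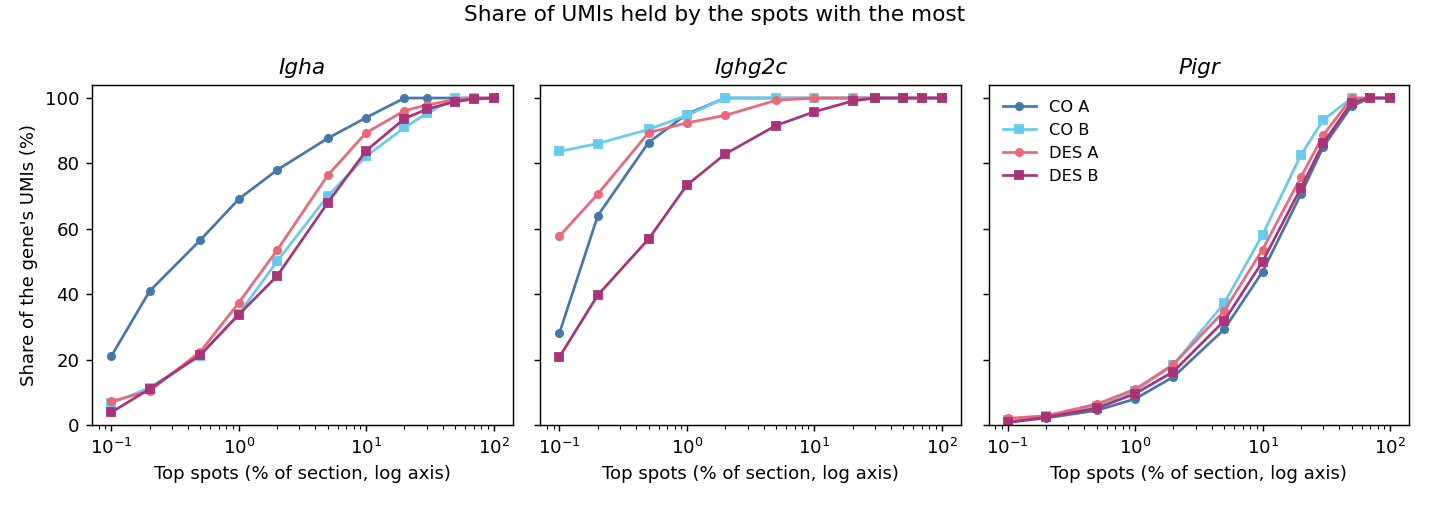
Share of a gene's UMIs (%) held by the spots with the most UMIs of it, against the percent of spots taken (log axis), for Igha, Ighg2c and Pigr in the 4 sections. The top 1% of spots hold 33.8 to 69.1% of Igha and 73.4 to 95.1% of Ighg2c, and 8.06 to 11% of Pigr.

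Most spots with much antibody RNA held mainly 1 heavy chain. Of the spots with at least 20 heavy-chain UMIs, there were 16 and 85 in CO A and CO B, and 208 and 298 in DES A and DES B. Igha led in 13, 80, 183 and 264 of them. A single heavy-chain gene exceeded 90% of the heavy-chain UMIs in 87.5%, 96.5%, 85.6% and 66.1% of these spots, so DES B had the most spots with mixed classes. Spots led by Ighm were found in the DES sections, 14 in DES A and 7 in DES B, and numbered 0 in both CO sections. In the CO sections, which carried fewer UMIs of it, no spot held more than 6 Ighm UMIs.

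The heavy-chain class differed with where in the tissue the spot lay. Each section has 10 deposited spot clusters, and clusters whose 5 muscle markers summed to at least 10000 CPM were set apart as muscle-rich, a limit chosen after the values were seen. These were 4 clusters in each CO section and 2 in each DES section, and the nearest below the limit were CO A cluster 10 at 8615 CPM and DES B cluster 5 at 9004 CPM. The IgG genes, here with Ighg3, made up 43.7% of heavy-chain UMIs in the muscle-rich clusters of CO A against 0.192% in its other clusters. The shares were 35.8% against 0.850% in CO B, 25.5% against 3.87% in DES A and 29.0% against 9.49% in DES B. Every section thus had a larger IgG share in its pooled muscle-rich clusters, though few spots carried most IgG UMIs. Single clusters did not all follow. In DES B the largest share, 33.4%, was in cluster 9, which was not muscle-rich, against 32.4% and 23.3% in muscle-rich clusters 8 and 10. In CO B muscle-rich cluster 8 had 3.12%, of 32 heavy-chain UMIs. The CO and DES ranges of the pooled other clusters did not overlap (0.192 and 0.850% against 3.87 and 9.49%).

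Igha showed the opposite shares, 34.3% in the muscle-rich and 93.7% in the other clusters of CO A, 51.6% and 96.9% in CO B, 53.4% and 94.5% in DES A, and 65.0% and 88.2% in DES B. Its level in CPM was another matter. In CO A it was 37.7 CPM in the muscle-rich and 169 CPM in the other clusters, and in CO B 172 and 1021 CPM. In DES A it was 5294 and 3007 CPM, and in DES B 11074 and 4943 CPM. Pooled over clusters, Igha in CPM was therefore lower in the muscle-rich than in the other clusters of both CO sections. It was higher in the muscle-rich clusters of both DES sections. Single DES clusters did not all follow. In DES A, muscle-rich clusters 6 and 7 were at 4238 and 8130.2 CPM, while clusters 3 and 4 were at 12141 and 8276 CPM. In DES B, muscle-rich clusters 8 and 10 were at 9014 and 17541 CPM, while clusters 3, 5 and 9 were at 10951, 29041 and 19647 CPM. The rest were at 4622 CPM or lower in DES A and at 8279 CPM or lower in DES B. The difference between the pools was not tested, and the muscle-rich clusters held 580 and 876 spots in CO against 246 and 145 in DES. Muscle-rich clusters 6 and 7 of DES A had medians of 2911 and 2535.5 UMIs per spot, against 4116 in that section. Ighm was at 23.9 and 40.4 CPM in the muscle-rich clusters of CO A and CO B, and at 2079 and 1008 CPM in those of DES A and DES B.

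**Figure D3:**
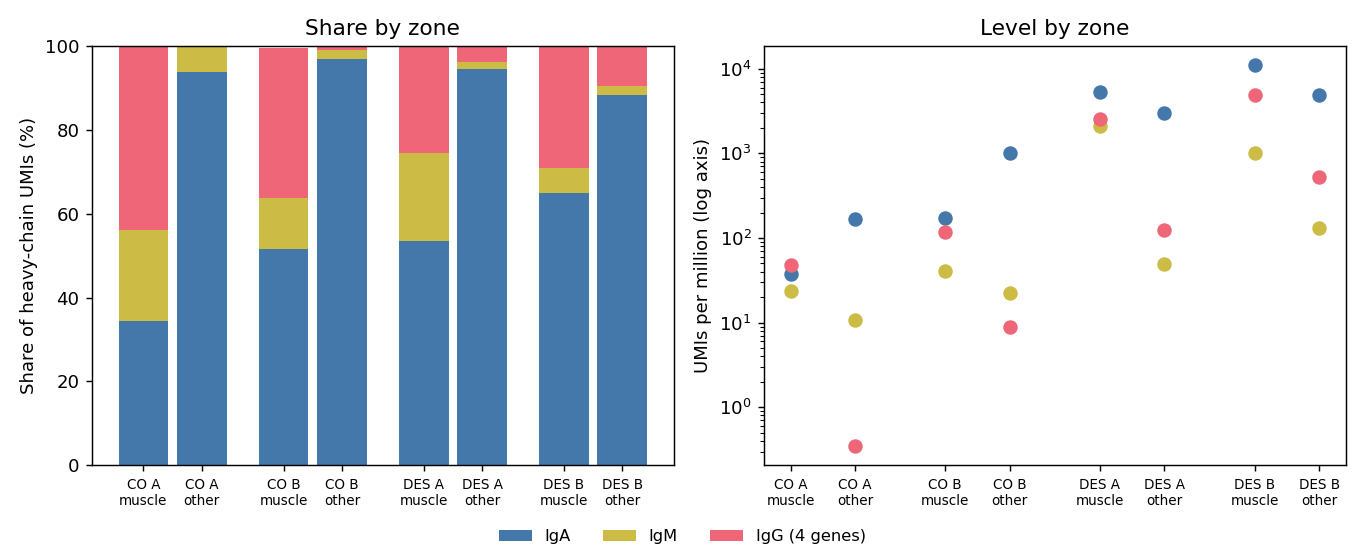
Heavy-chain UMIs in muscle-rich and other spot clusters of the 4 sections: share of heavy-chain UMIs (%, left) and level (CPM, log axis, right) of IgA, IgM and the 4 IgG genes. Pooled over clusters, the IgG share is larger in the muscle-rich clusters of each section. The pooled IgA level is lower there in CO and higher there in DES. Single clusters vary within each pool.

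By single clusters, Igha ranged from 2.99 CPM (CO A cluster 1) to 29041 CPM (DES B cluster 5). In CO A its highest cluster was 7, at 2513 CPM, which held 41.3% of that section's antibody UMIs. In CO B it was 9, at 4664 CPM, and in DES A it was 3, at 12141 CPM. These highest clusters were shallow. Their medians were 2843.5, 1261, 732 and 2216 UMIs per spot in CO A, CO B, DES A and DES B. The medians of those whole sections were 6656, 4862.5, 4116 and 5334. DES A cluster 3 held 6.96% of that section's Igha UMIs in 14.0% of its spots, and CO B cluster 9 held 4.89% in 3.38%. The lowest clusters of CO A, DES A and DES B were rich in the 5 epithelial markers, which summed to 4817 CPM in CO A cluster 1, 3394 CPM in DES A cluster 8 (Igha at 174 CPM) and 4239 CPM in DES B cluster 7 (Igha at 802 CPM). In CO B the lowest was cluster 5, at 54.2 CPM, a muscle-rich one.

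**Figure D4:**
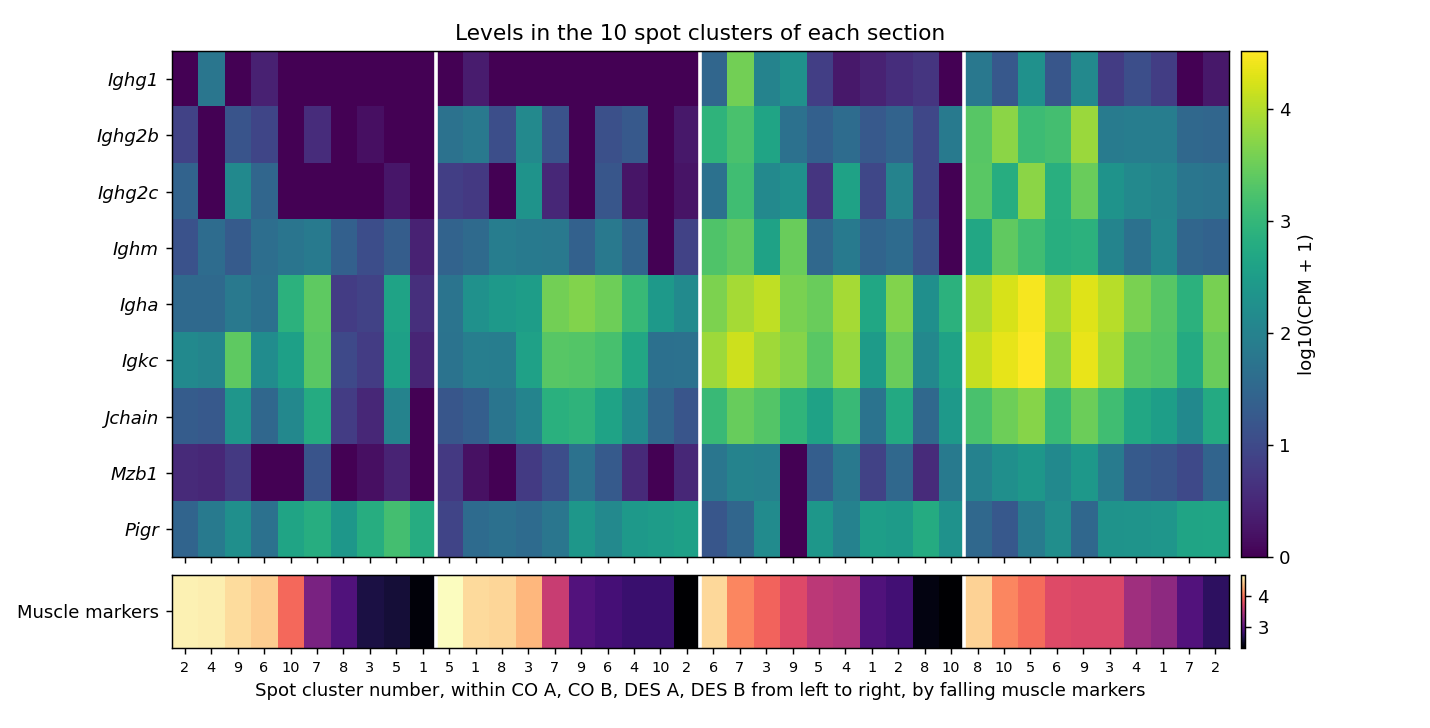
Level of the 9 genes in the 10 spot clusters of each section (colour, log10 of CPM + 1), ordered within each section by falling summed muscle markers (lower strip). Igha, Igkc and Jchain run together, while Pigr is highest where muscle markers are low.

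Clusters that the study named stroma were not alike in the 2 CO sections. Igha was at 5.37 CPM in CO A cluster 8 and at 3265 CPM in CO B cluster 6, and at 8276 CPM in DES A cluster 4 and 29041 CPM in DES B cluster 5. These clusters held 0.517%, 35.6%, 26.4% and 20.9% of the antibody UMIs of their sections, so most of the signal lay outside them in each case. Jchain followed at 5.37, 413, 1142 and 5020.0 CPM. Both DES values stood above both CO values for 7 of the 8 genes that entered this fit in CPM and for 6 after TMM scaling, where 24.7% and 22.6% of the 8914 genes did so. Ighg1 did not enter it, with 0 UMIs in both CO clusters and 1 and 67 in the DES clusters, 66 of the 67 in 1 spot. The edgeR fit called Ighg2c, beside 1.47% of all genes, and DESeq2 called 0 of the 8. In the spots outside the stromal clusters 4 of the 9 were called (Ighm, Igkc, Jchain and Mzb1), beside 6.67% of 13921 genes, and 8 did not overlap, as 45.1% of genes did in CPM and 29.2% after TMM scaling. As above, nothing is read from these counts.

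Epithelium-rich spots, the top 20% of each section by the share of 5 epithelial genes, held less antibody RNA than the section as a whole. Igha there was at 18.0 and 277 CPM in the CO and at 1619 and 867 CPM in the DES sections. Jchain was at 2.11 and 36.3 CPM and at 206 and 118 CPM. Ighm was at 4.91 and 6.0 CPM and at 26.8 and 31.7 CPM. Ighg1 had 0 UMIs in these spots of both CO sections, and with the CO group set at 3 UMIs its DES mean of 1.96 CPM was at least 5.19-fold higher. The DES sections were above the CO sections for Ighg2b, Ighg2c, Ighm, Igha, Igkc, Jchain and Mzb1 among the 8 genes that entered this fit, in which 47.9% of genes were in CPM and 29.2% after TMM scaling, and 2 of the 8 were called beside 7.13% of 11733 genes. Nothing is read from these counts either.

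Pigr in the epithelium-rich spots was at 639 and 369 CPM in CO A and CO B, and 411 and 378 CPM in DES A and DES B. The groups overlapped, and the log2 fold change was -0.67 (SE 0.31). Per 100 UMIs of the 5 epithelial markers, Pigr had 17.2 and 10.9 UMIs in CO A and CO B, and 9.55 and 9.33 UMIs in DES A and DES B. On this scale both DES sections lay just below both CO sections, with CO A apart from the other 3.

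IgA RNA was set beside its transporter by UMIs and by spots, and the measures differed. Spots with at least 1 Pigr UMI held 86.8% of the Igha UMIs of CO A, where they held 73.3% of all UMIs. In CO B they held 37.4% of Igha against 54.9% of all UMIs, in DES A 51.9% against 72.7%, and in DES B 59.1% against 78.1%. These shares rest on few spots, since 5 spots held at least 50% of the Igha UMIs of CO A. Counted by spots, Pigr was present in 67.9% of the spots with Igha in CO A against 61.1% of all its spots, in 45.5% against 38.0% in CO B, in 48.0% against 47.8% in DES A and in 56.6% against 53.1% in DES B. The share of Igha UMIs was thus below that of all UMIs outside CO A, while the share of spots was at or above that of all spots in each section. For Ighg2c the share of UMIs was 54.4% and 3.83% in CO A and CO B, and 65.2% and 18.8% in DES A and DES B, below that of all UMIs in each, and it rests on few spots. By spots, Pigr was present in 52.6% and 20.7% of the Ighg2c spots of CO A and CO B, below the share of all spots, and in 47.7% and 55.3% of those of DES A and DES B, near it.

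The genes with the most similar pattern over the 40 section clusters, after centring each section, were sought among 9767 genes. This is a description, since clusters of a section share a library and its depth. Jchain ran with Igkc (Pearson's r 0.97) and Igha (0.94), and outside the antibody genes most closely with Prg2 (0.82), Ly6c2 (0.78) and Slpi (0.75). Ighg2c ran with Ighg2b (0.71), and outside the antibody genes most closely with Colec12 and Mmp14 (0.75 each), Frzb and Lum (0.74 each) and Cd209f (0.73). Pigr ran with Sprr2f, Epcam, Tmprss4 and Plet1 (0.97 each), and its r was -0.24 with Jchain and -0.68 with Ighm. Prg2, which encodes an eosinophil granule protein that plasma cells can also make, was at 1.76 and 5.44 CPM in CO and 26.8 and 37.2 CPM in DES. In the CO library 408 of its 549 UMIs were in annotated lymphocytes. Prg2 is itself 1 of the 3 eosinophil markers used here (with Epx and Siglecf), which summed to 1.76 and 5.71 CPM in CO and 31.5 and 37.2 CPM in DES, so Epx and Siglecf were at or near 0 in CO A, CO B and DES B. Prg2 was chosen after its values were seen.

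Other genes of the pathway were taken from 6 lists, which were also chosen with earlier results known. Of these the edgeR quasi-likelihood test with Benjamini-Hochberg adjustment over all 14098 genes called few in whole sections. Counts at an unadjusted p and by DESeq2 are given without their share over all genes, so nothing is read from them. In whole sections DESeq2 called 1791 of all genes, where edgeR called 747. Of 7 further constant-region genes 3 had enough UMIs to be tested and 0 were called, with 3 at an unadjusted p under 0.05 and 3 called by DESeq2. Iglc1, a lambda light chain, had 5 and 19 UMIs in CO and 78 and 1716 in DES. Its log2 fold change was 6.27 (SE 1.73, adjusted p = 0.113). Iglc2 and Iglc3, further lambda chains, had log2 fold changes of 3.21 (SE 0.82, adjusted p = 0.0986) and 2.65 (SE 0.72, adjusted p = 0.11).

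In whole sections 3 of 6 B cell genes and 1 of 17 plasma cell genes passed the test, beside 5.30% of all genes, and the share of the plasma cell genes was near that background. Of 15 B cell genes 6 could be tested and 3 were higher in DES: Vpreb3, a surrogate light chain partner of early B cells (0.80 and 0.453 CPM in CO, 25.7 and 77.4 CPM in DES, log2 fold change 6.13, SE 0.78, adjusted p = 0.0279), Cd79a of the B cell receptor (3.98, SE 0.56, adjusted p = 0.0312) and Blk, a B cell kinase (3.79, SE 0.47, adjusted p = 0.0276). The median log2 fold change of the 6 was 3.1 (-0.01 over all genes). A gene can enter the fit through high DES sections alone, so nothing is read from this median or from the 3 of 6 called. Of the other genes tested, Ebf1, a B cell transcription factor that other cells also use, was at 6.08 and 11.2 CPM in CO and 2.19 and 3.04 CPM in DES (-1.91, SE 0.43, adjusted p = 0.077), and Cd79b, the partner of Cd79a, had 0.00 (SE 0.34, adjusted p = 0.998). These 2 were named after their values were seen. In the dissociated cells 6698 of the 8346 Vpreb3 UMIs of the DES library came from annotated epithelial cells and 27 from lymphocytes. It was at 38.0 CPM in DES and 0.431 CPM in CO epithelial cells. Ms4a1, a surface marker of mature B cells, had 1 and 0 UMIs in the CO sections and 4 and 3 in the DES sections, and was named after its values were seen.

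Of 17 plasma cell genes, all tested, only Txndc5, a secretory pathway enzyme, was called (101 and 93.6 CPM in CO, 242 and 324 CPM in DES, log2 fold change 1.33, SE 0.23, adjusted p = 0.0452). At an unadjusted p under 0.05 there were 6 of the 17, and DESeq2 called 4. The 6 went both ways, with Ssr4 at -0.84 (SE 0.17, adjusted p = 0.0626) and Fkbp11 at -0.66 (SE 0.19, adjusted p = 0.116), and 10 of the 17 had a value above 0. Cells with Jchain and Mzb1 (at least 2 UMIs each) held 1.61% of the Txndc5 UMIs of the CO single-cell library. The median of the list was 0.57. The log2 fold change of Xbp1, a plasma cell transcription factor that secretory epithelia also use, was -0.08 (SE 0.19, adjusted p = 0.847). Pou2af1, a B cell coactivator, had 3.21 (SE 0.58, adjusted p = 0.0507). Both were named after their values were seen. Among 22 homing, survival and class switch genes, 13 were tested. The B cell attractant Cxcl13 was higher (0.560 and 0.544 CPM in CO, 43.5 and 49.8 CPM in DES, log2 fold change 6.17, SE 0.27, adjusted p = 0.0136). Cxcl12, which holds plasma cells in marrow and tissue, was lower (127 and 123 CPM in CO, 79.8 and 66 CPM in DES, log2 fold change -0.99, SE 0.17, adjusted p = 0.0446). Summed over 5 genes, stromal markers were at 2452 and 2453 CPM in CO and at 1139.9 and 762 CPM in DES. Within the stromal clusters the value for Cxcl12 was 0.20 (SE 0.51, adjusted p = 0.935) and in epithelium-rich spots -0.13 (SE 0.30, adjusted p = 0.827). The part of the stromal markers in the result was not tested.

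Ccl28, the mucosal attractant of IgA plasma cells, and its receptor Ccr10 were looked at after their values were seen. Ccl28 was at 65.4 CPM in CO A and at 7.16, 8.34 and 8.40 CPM in CO B, DES A and DES B (log2 fold change -2.34, SE 1.02, adjusted p = 0.247), and without CO A its log2 fold change was 0.04. In epithelial cells of the single-cell libraries, 1 of each group, it was at 58.2 CPM in CO and 21.5 CPM in DES. With each cell thinned to 3000 UMIs, 15.5% of CO and 5.71% of DES epithelial cells held it, against 59.0% and 34.8% unthinned, with 21 CO and 54 DES cells left out as shallower. Mesothelial cells held it in 1.46% and 0.291% when thinned alike. The median depth before thinning was 23640.5 and 22256 UMIs in these epithelial cells and 10582 and 12520.0 in the mesothelial cells. Ccr10 had 0 and 5 UMIs in CO and 15 and 31 in DES (adjusted p = 0.167). Among 8 immunoglobulin receptors 7 were tested and 0 called, with 2 at an unadjusted p under 0.05 and 2 called by DESeq2, counts from which nothing is read. The 2 went opposite ways. For Fcgrt, which carries IgG across cells, the difference was -1.01 on the log2 scale (SE 0.30, adjusted p = 0.127), and for Fcgr3, an activating IgG receptor of myeloid cells, 1.37 (SE 0.45, adjusted p = 0.153). Among 13 genes of the Pigr setting, Slpi, a secreted protease inhibitor, was called (15 and 18.2 CPM in CO, 67.9 and 132 CPM in DES, log2 fold change 2.39, SE 0.39, adjusted p = 0.0401). In the single-cell libraries Slpi was at 1055 and 2866 CPM in CO and DES mesothelial cells and at 32.1 and 20.2 CPM in epithelial cells. The mesothelial markers were higher in the DES sections, as given below, and their part in the result was not tested. In the stromal clusters edgeR called 0 genes of the 6 lists. At an unadjusted p under 0.05 there were 2 of 3 constant-region genes, 1 of 9 plasma cell, 2 of 3 B cell, 3 of 7 homing, 0 of 5 receptor and 2 of 13 Pigr setting genes, and DESeq2 called 1 B cell gene. The share of all genes is not given beside these counts, so nothing is read from them.

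In the epithelium-rich spots Cxcl13 had 0 UMIs in both CO sections and was at 56.2 and 77.0 CPM in DES, at least 176-fold higher than 3 UMIs in the whole CO group would give (adjusted p = 0.0104). In the single-cell libraries Cxcl13 was at 0.216 and 0.148 CPM in CO and DES epithelial cells and at 12.5 and 10.2 CPM in mesothelial cells. In annotated lymphocytes outside the antibody-secreting cells it was at 25.2 CPM in CO, from 4 cells, and at 16.4 CPM in DES, from 1 cell. The 3 mesothelial markers summed to 5.28 and 5.08 CPM in the CO sections and to 22.0 and 28.4 CPM in the DES sections, and the part of these or of the lymphocytes in the result was not tested. Ccl21a, another lymphocyte attractant (log2 fold change 3.05, SE 0.43, adjusted p = 0.0225), and Tgfb1, which promotes the switch to IgA (2.96, SE 0.37, adjusted p = 0.019), were also higher there. With Cxcl13 they were 3 of the 9 homing genes tested in these spots. Nothing is read from this count, since Cxcl13 entered the fit through the DES sections alone. Vpreb3 (6.58, SE 0.74, adjusted p = 0.0161) and Slpi (2.49, SE 0.31, adjusted p = 0.019) were higher there too, and the call of Slpi was lost without DES A. Beside 7.13% of all genes called in these spots, 3 of the 10 plasma cell genes tested were called. Txndc5 was higher (adjusted p = 0.0329), and Fkbp11 (-0.99, SE 0.19, adjusted p = 0.0451) and Ssr4 (-1.16, SE 0.19, adjusted p = 0.0328), both of the secretory pathway, were lower. The call of Fkbp11 was lost with DESeq2 (0.0512), with no filter (0.0644), with the section letter as a block (0.0662) and in the top 10% of spots (0.14), that of Ssr4 with the block (0.0626) and that of Txndc5 with no filter (0.0507). The calls of Txndc5, Cd79a, Blk, Cxcl12 and Slpi in whole sections were lost without DES A and without DES B, with adjusted p from 0.056 to 0.427. In the epithelium-rich spots those of Txndc5, Fkbp11, Ssr4 and Ccl21a were lost without either DES section (0.0896 to 0.396) and that of Tgfb1 without DES A (0.0562), while that of Cxcl13 held in each. In whole sections those of Vpreb3 (0.0604) and Cxcl13 (0.0515) were lost without DES B.

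Before the single cells are described, 180 cell barcodes were found in both libraries. In 1 such pair, both cells of which held Jchain and Mzb1, the CO cell had 19 Ighm, 117 Iglc1 and 24 Iglc2 UMIs and the DES cell had 18, 85 and 25. In another the CO cell had 62 Igha and 210 Igkc UMIs and the DES cell 48 and 159. The cause was not tested. The number of cells with Jchain and Mzb1 is given with and without shared barcodes, and the other single-cell values include them. Each condition had 1 library, so no test was made, and the intervals cover counting error only.

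Cells with at least 2 UMIs each of Jchain and Mzb1 are called antibody-secreting cells here, a label that some of them may not fit. They numbered 57 of 32387 in the CO library (0.176%, 95% exact binomial interval 0.133 to 0.228) and 4 of 16312 in the DES library (0.0245%, 0.00668 to 0.0628). Without shared barcodes they numbered 55 and 3. Of the 57, the study's annotation called 35 lymphocytes and left 20 unannotated, with 1 epithelial and 1 mesothelial. The CO cells had a median of 15255 UMIs, of which antibody genes took a median of 62.4% (2.16 to 73.7%). Antibody genes took over 10% of the UMIs in 49 of the 57. Igha led in 51 of the 57 cells, Ighm in 2, Ighg1 in 2 and Ighg2b in 1, and each of the 56 with at least 20 heavy-chain UMIs had more than 90% from 1 gene. Igkc exceeded 90% of the light-chain UMIs in 54 cells and lambda in 1.

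UMIs of plasma cell genes were found in those CO cells, with Xbp1 in 55, Derl3 in 47, Tnfrsf17 in 42 and Prdm1 in 26 of 57. The cells held 0.911%, 22.0%, 94.2% and 1.32% of the UMIs of these genes in the CO library. The epithelial genes Epcam and Krt8 were found in 39 and 46 of the 57. The part of stray RNA or of mixed cells in these counts was not tested. Cd79a was found in 54 and Ms4a1, which plasma cells lose, in 5. These cells held 91.7% of the Igha UMIs of the CO library. They also held 96.6% of its Jchain UMIs, but Jchain was used to choose them. The 4 DES cells had a median of 944 UMIs, and 3 of them had at least 20 heavy-chain UMIs, 2 led by Igha and 1 by Ighm. A single annotated lymphocyte of 24173 UMIs gave 2910 of the 3503 Igha and 2592 of the 2905 Jchain UMIs of the DES library.

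The order of the conditions was therefore opposite in the dissociated cells. Igha was at 236 CPM in the CO library and 12.1 CPM in the DES library, Igkc at 850.0 and 54.4 CPM, and Jchain at 187 and 10.1 CPM. Ighg2b had 555 UMIs and Ighg2c 59 in the CO library, and both had 0 in the DES library. Ighm was closest, at 6.31 and 4.77 CPM. The libraries also differed in the tissue they released, with 1326 and 1 annotated stromal cells, and the part of this in the difference was not tested.

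Ighm also had UMIs outside antibody-secreting cells, which held 6.23% of its UMIs in the CO and 5.88% in the DES library. Annotated lymphocytes outside them had the highest level, with 685 UMIs in 128 of 388 CO cells (392 CPM, 363 to 423) and 363 UMIs in 89 of 238 DES cells (248 CPM, 223 to 275), as 95% exact Poisson intervals. In annotated myeloid cells it had 118 UMIs in 48 of 67 CO cells (191 CPM, 95% exact Poisson interval 159 to 229) and 426 UMIs in 160 of 228 DES cells (209 CPM, 189.5 to 229.7). The 160 DES cells held 0 UMIs of Igkc, Jchain, Cd79a and Mzb1. Of the 48 CO cells 17 held Igkc (21 UMIs), 2 held Jchain, 1 held Cd79a and 0 held Mzb1. In 136 DES cells annotated as DES-Myeloid-Lyz2hi Ighm had 0 UMIs, with an upper bound of 1.66 CPM. Ighm was at 0.406 CPM in CO and 0.108 CPM in DES epithelial cells, so its myeloid level lay far above that of epithelium in both libraries.

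Mzb1 in the DES library was mostly outside antibody-secreting cells as well. DES epithelial cells held 159 of its 279 UMIs, in 152 of 5255 cells and at most 2 in a cell (0.903 CPM, 0.768 to 1.05). CO epithelial cells outside the Jchain and Mzb1 class held 17 UMIs (0.216 CPM, 0.126 to 0.346). Of the 152 DES cells 4 held Igkc and 2 Jchain. Igkc was found at a low share in cell types that should lack it, more so in the CO library. With each cell thinned to 3000 UMIs, 6.91% of CO epithelial and 9.05% of CO mesothelial cells had an Igkc UMI, against 0.211% and 0.370% in DES. Unthinned, 46.8% of CO and 1.75% of DES epithelial cells did.

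Pigr was measured in annotated epithelial cells as 32749 UMIs in 2583 CO cells and 35133 UMIs in 5255 DES cells. Its level was 416 CPM (411 to 420.1) in CO and 199 CPM (197 to 202) in DES, a ratio of 0.480. With cells thinned to 3000 UMIs, which left out 21 and 54 cells, 62.7% of CO cells (60.8 to 64.6) and 38.5% of DES cells (37.1 to 39.8) had a Pigr UMI, against 95.1% and 82.2% unthinned at medians of 23458 and 21900.0 UMIs. Mesothelial cells, which should lack it, gave 9.60% in CO and 3.60% in DES when thinned, so both epithelial shares lay above this background. Per 100 UMIs of the 5 epithelial markers, Pigr had 8.76 UMIs in CO and 6.43 in DES cells.

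Pigr varied among epithelial clusters more than between the libraries. In CO it ranged from 140.0 CPM in cluster 3 to 943 CPM in cluster 11, which the study placed among luminal cells that express Foxa2 without the markers of mature glands. Clusters 3, 8 and 14, named developing glandular, were the lowest, at 140.0, 154 and 143 CPM, and cluster 13, named mature glandular, was at 645 CPM. In DES it ranged from 34.5 CPM in the 647 cells without a cluster to 462 CPM in cluster 15. The study took basal cells out before clustering by Krt14 and Trp63, and of the 647 cells 622 held Krt14 and 567 held Trp63. Leaving the 647 cells out gave a ratio of 0.509. Clusters were made separately in each library, so their numbers do not match.

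**Figure D5:**
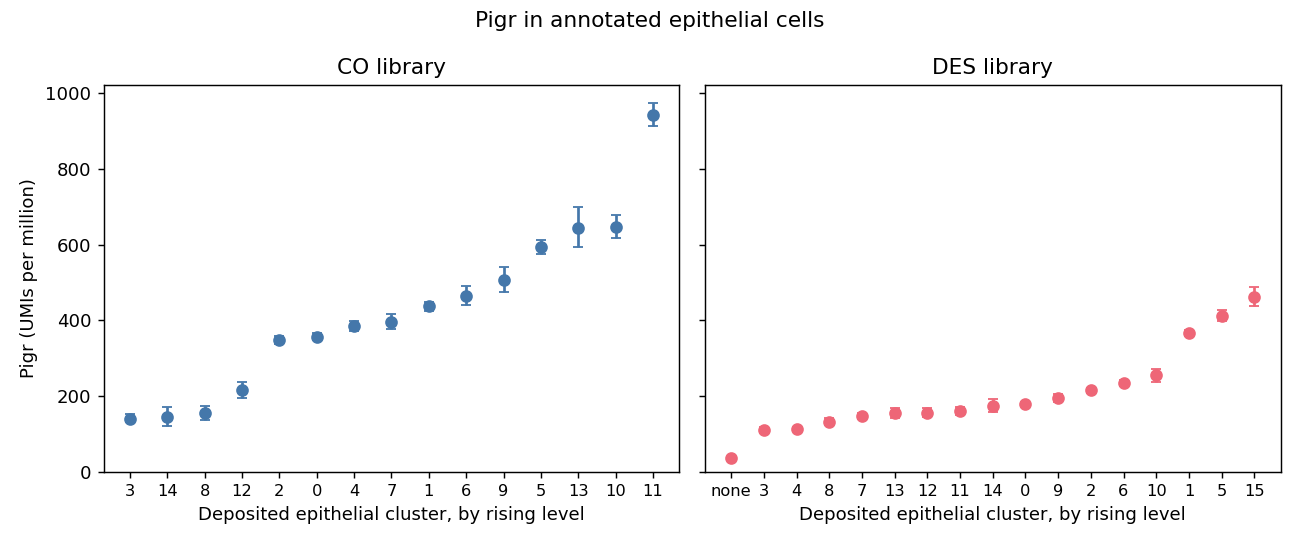
Pigr level (CPM) in each epithelial cluster of the CO and DES libraries, with exact Poisson 95% intervals that cover counting error only. CO clusters run from 140.0 to 943 CPM and DES clusters from 109.9 to 462 CPM, and the 647 DES cells without a cluster, marked none, are at 34.5 CPM.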

How the data were processed

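UMI counts per gene and spot or cell were deposited by the authors as count tables, made per the submitters' processing notes with bcl2fastq 2.20.0.422, Cell Ranger 3.0.1 and Space Ranger 1.2.2 on mm10. How reads shared by related genes were counted is not given in the sources used here. The authors' spot clusters, cell types and cell clusters were used as deposited. The 9 genes and all gene lists were chosen with earlier results of these data known. For each section, sums of UMIs were taken over all spots, the stromal clusters named by the study, the other spots, and the top 20% of spots by epithelial markers. Sums were fitted with edgeR 4.0.16 (R 4.3.3) by the quasi-likelihood test with TMM scaling, filterByExpr and Benjamini-Hochberg adjustment at 0.05, with sections as replicates. Other lists were named by the largest called changes, at most 4 a list. The fit was tried on simulated counts in which 200 well counted genes were changed. In whole sections (13869 genes), 100% of changes of 4 on the log2 scale were recovered, with 15 false calls. For changes of 2, 86% of rises and 92% of falls were recovered. The counts were drawn from a smooth model, so these shares need not hold for genes with few UMIs or with UMIs in few spots. DESeq2 1.42.0, DESeq2 size factors, no filter, left-out sections, a section letter block and other limits were tried as alternatives. Cells were summed per type, intervals were exact (scipy 1.17.1), and likeness was Pearson's r of log2(CPM + 5) for genes of at least 10 CPM on average. No doublet caller was run here. Cells without annotation were kept as such.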

Additional observations from a re-analysis of the deposited data

Results flagged for a closer look

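For 8 of the 9 genes the CO to DES order in the single-cell libraries was opposite to that in the sections, where both DES sections lay above both CO sections. The DES level over the CO level in the libraries was 0.0170 for Ighg1, 0 for Ighg2b, 0 for Ighg2c, 0.755 for Ighm, 0.0515 for Igha, 0.0640 for Igkc, 0.0538 for Jchain and 0.208 for Mzb1. The difference between the assays was not tested, since each condition had 1 library. For Pigr the ratio was 0.779 in the libraries and 0.848 in the sections, where the groups overlapped.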

How the results depend on the processing

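Of 418 values under alternative settings, 318 were labelled the same as the main setting, by a rule set for each kind of value. Of the 318, 293 were values of single genes. Among the main results, such as counts of called genes and of cells, 25 were the same and 26 moved. Among the 25, the counts of antibody-secreting cells without shared barcodes were labelled the same without a comparison. In whole sections 747 genes were called, 1791 with DESeq2, and 3 to 2819 with 1 section left out (2819 without CO A, 2336 without CO B, 14 without DES A, 3 without DES B). In the stromal clusters 131 were called, 645 with no filter, 453 with the replicate block, and 40 to 357 with 1 section left out. In the other spots 928 were called, 1882 with DESeq2, and 135 to 3517 with 1 section left out. In epithelium-rich spots 836 were called, 459 with no filter, and 169 to 3217 with 1 section left out. A group left with 1 section is assumed to vary like the other. The cause was not tested. Pigr in whole sections turned to 0.41 and Ccl28 to 0.04 without CO A, and without CO B they were at -0.99 and -3.20. With 1 section left out the log2 fold change of Ighg1 ran from 2.47 to 7.82.

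The section letters A and B name sections of different mice. Deviations of same-letter sections were nearly uncorrelated (r over genes -0.009 in whole sections, 0.085 in stromal clusters). The sections are too few for this r to show whether the letters share more than a name. With the letter as a replicate block, 527 genes were called in whole sections, and Txndc5 (adjusted p = 0.0794) and Cxcl12 (adjusted p = 0.0857) were not called by edgeR. Without a filter Txndc5 (0.0635), Cxcl12 (0.0625) and Slpi (0.0556) were not called either.

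The ratio of Pigr in epithelial cells was 0.480, and 0.509 in cells with a cluster. The share of cells with Pigr was 77.8% in CO and 51.2% in DES when thinned to 5000 UMIs, and 95.1% and 82.2% unthinned. Igha in DES B cluster 5 was at 31437 CPM with antibody genes left out of the total. Antibody-secreting cells numbered 74 and 8 at 1 UMI each and 55 and 2 at 3 UMIs each. Among cells of at least 1000 UMIs they numbered 57 and 2.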
